A study of Mus musculus with 2 samples.

Results

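The genes described are the histone cluster genes of the mouse, taken as every gene whose symbol begins with Hist1h, Hist2h, Hist3h or Hist4h. The deposited gene tables hold 67 of them among 43346 genes in all, and 3 further genes of this name in the annotation (Hist1h2bh, Hist1h2bm and Hist2h2bb) have no row and were not analysed here. By symbol the 67 genes fall into 6 for the linker histone H1, 20 for H2A, 16 for H2B, 12 for H3 and 13 for H4. No level was required of a gene, and the rule uses no measured value, though it was set with earlier results of these data known.

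The study gives 1 group, primary megakaryocytes of mouse embryos at embryonic day 14.5, with males and females pooled, as 2 polyA RNA libraries called replicate 1 and replicate 2. Both libraries carry the same biosample and donor labels, so the spread between them may be technical. The labels name no treatment, no mutation, no strain and no second group. The comparisons below are therefore between the members, between their classes, between the libraries and against other genes of the same libraries, and none carries a test. Megakaryocytes are the bone marrow and fetal liver cells that shed platelets, and they copy their genome repeatedly without dividing.

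Histone cluster genes encode the core histones H2A, H2B, H3 and H4, around which DNA is wound, and the linker histone H1, which binds between these particles. Most of them are transcribed in S phase, when new DNA is packed. Their main messenger RNAs have no poly(A) tail: the transcript is cut a few bases after a short stem-loop that SLBP binds, with the help of the U7 small nuclear ribonucleoprotein. Some of these genes also give longer transcripts that run past the stem-loop and carry a poly(A) tail, which is known from differentiated cells in particular. A library made from poly(A) RNA reads the tailed transcripts, and any untailed ones that came through the selection.

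The stem-loops themselves show what the rest of the account turns on. A histone stem-loop, a stem of 6 base pairs closed by a loop of 4 bases, was searched for after the coding sequence in the annotated transcripts, and 8 different ones were found. The site of the most abundant member of each class that holds one is printed 5′ to 3′ on the transcript's strand, with further members that differ in the stem or in the length that follows it. Capitals mark the stem, and the lower-case bases between them are the loop.
Hist1h1c: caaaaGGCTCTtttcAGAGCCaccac
Hist1h2ap: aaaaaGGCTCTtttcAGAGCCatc
Hist2h2ac: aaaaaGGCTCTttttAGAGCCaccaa
Hist1h2bj: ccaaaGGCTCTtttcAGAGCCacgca
Hist2h3c2: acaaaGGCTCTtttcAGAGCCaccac
Hist1h4h: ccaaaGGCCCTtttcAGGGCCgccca
Hist1h4i: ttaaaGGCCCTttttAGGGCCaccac
Hist1h4b: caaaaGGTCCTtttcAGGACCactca

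Within the searched pattern, the stems of the H4 genes differed from those of the other classes. How alike the stems are across the family was set in part by the search. The commonest form, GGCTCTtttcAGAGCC, stood in 24 genes of the H1, H2A, H2B and H3 classes, which together had 12991 TPM in replicate 1 against 13248 TPM in replicate 2. TPM is the level per transcript length as the authors deposited it. The commonest form of the H4 genes, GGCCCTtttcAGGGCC, stood in 7 of them, with 761 TPM in replicate 1 against 935 TPM in replicate 2. Another stem, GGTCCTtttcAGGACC, was found in 2 H4 genes, Hist1h4b and Hist1h4j. The stem-loop began between 21 bases (Hist2h2ac) and 58 bases (Hist2h2aa1 and Hist2h2aa2) after the stop codon.

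The libraries differed widely in depth. Rounded to whole numbers, the expected counts came to 42099208 for replicate 1 and to 2275920 for replicate 2. A count of 3, taken here as the floor that stands in for 0 counts in a ratio, was worth 0.0713 CPM in replicate 1 and 1.32 in replicate 2. All 10 megakaryocyte markers were detected, at 16188 TPM in replicate 1 against 22385 TPM in replicate 2. Markers of other cells were present too. The 6 erythroid markers, globins above all, summed to 9446 TPM in replicate 1 against 15782 TPM in replicate 2, and every one of them had counts. The 6 macrophage markers summed to 751 TPM in replicate 1 against 221 TPM in replicate 2, and the 6 granulocyte markers to 800 TPM in replicate 1 against 138 TPM in replicate 2. Ctsg, S100a8 and S100a9 had counts in replicate 1 and none in replicate 2. The part of these cells in the histone levels was not tested.

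Histone cluster RNA was abundant in both libraries, and most of it came from 1 class. The 67 genes summed to 15992 TPM in replicate 1 against 17419 TPM in replicate 2, or 1.60% and 1.74% of all TPM. Of these genes, 59 had a mean of at least 1 TPM, which is called detected here, and 42 had at least 10 TPM. H2A genes held 84.5% of the members' TPM in replicate 1 and 81.5% in replicate 2. H4 genes came next with 7.64% and 9.52% in the same order of libraries, and H1, H2B and H3 each held less than H4 in both. Since these are bulk libraries, fewer cells of a type and less RNA per cell cannot be told apart.

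**Figure D1:**
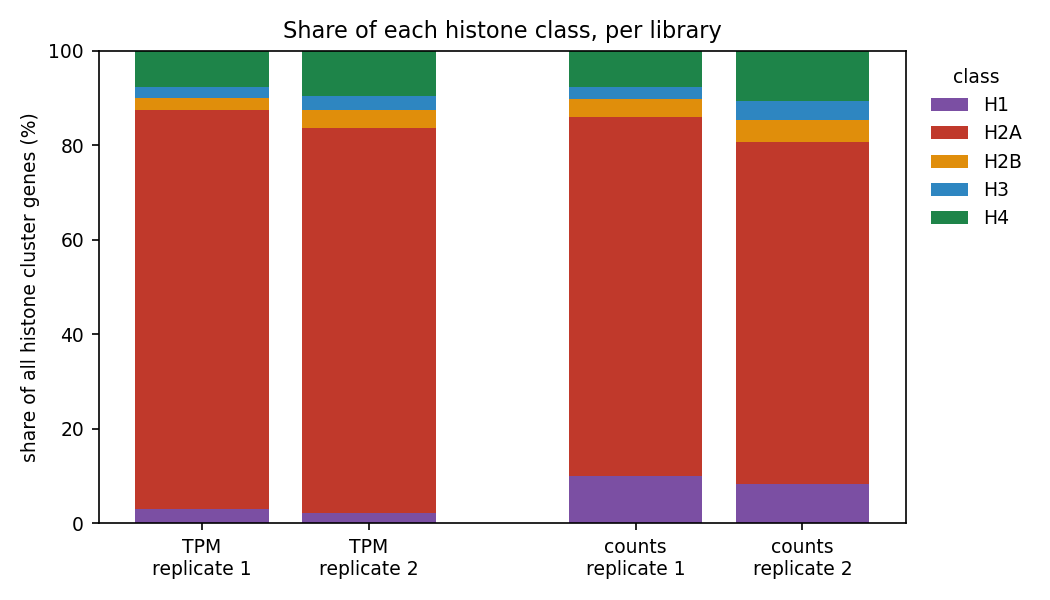
Share of each histone class among all histone cluster genes, as stacked bars in percent, for TPM in replicate 1 and replicate 2 on the left and for expected counts in replicate 1 and replicate 2 on the right. H2A fills 84.5% and 81.5% of the TPM bars, and H1 is larger in the count bars, at 9.89% and 8.19%, than in the TPM bars.

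The class order depended on the scale for H1, whose leading transcript is long. Per length, H1 had 2.96% of the members' TPM in replicate 1 and 2.20% in replicate 2. In expected counts, which grow with transcript length, it had 9.89% in replicate 1 and 8.19% in replicate 2. H2A kept the largest share in counts, with 76.2% in replicate 1 and 72.4% in replicate 2.

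A single gene, Hist1h2ap, made up most of the H2A signal. This H2A gene (chr13:21833026-21833507, minus strand, mm10) had 11227 TPM in replicate 1 against 11308 TPM in replicate 2, from 152796 and 7028 expected counts. It ranked 9 among all genes by mean TPM. Its share of the members' TPM was 70.2% in replicate 1 and 64.9% in replicate 2. Without it the other 66 genes summed to 4765 TPM in replicate 1 against 6110 TPM in replicate 2, and the H2A share averaged 47.5%.

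Hist1h2ap shares long stretches of sequence with other H2A genes, and its value cannot be separated from theirs with full certainty. Of the stretches of 100 bases in its transcript, 92.2% also occur in Hist1h2ao, a neighbouring H2A gene that was at 0 TPM in both libraries. Under the authors' posterior mean estimate, Hist1h2ap had 11000 TPM in replicate 1 against 7971 TPM in replicate 2. A lower value in replicate 2 under that estimate was not particular to genes with copies. Hist1h1c, with 5.07% of its stretches shared, had 257 TPM there by that estimate, against 363 TPM as first given. Both genes sit among 11 H2A genes that are joined by sharing at least 50% of their 100-base stretches, counted on the shorter transcript. The genes were joined in a chain, so not every pair of them shares that much. That group of 11 summed to 11647 TPM in replicate 1 against 12507 TPM in replicate 2, most of it Hist1h2ap. Several parts were farther apart between the libraries than the total, but Hist1h2ap itself was nearer, at 11227 and 11308 TPM.

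**Figure D2:**
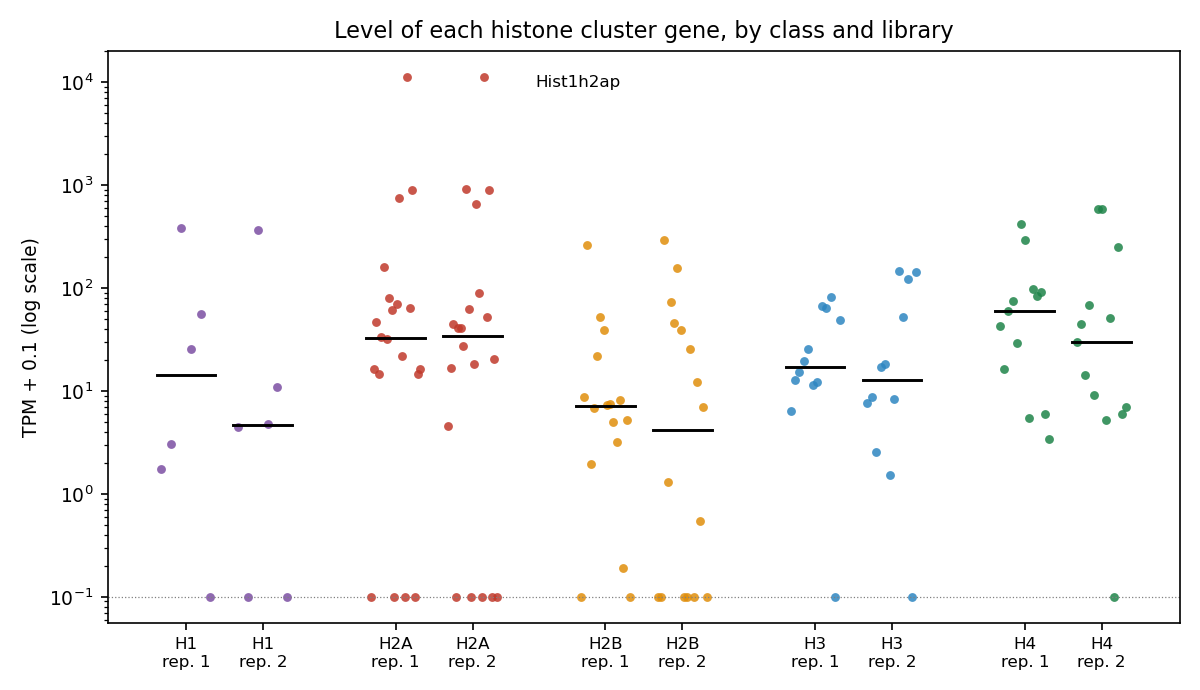
TPM of every histone cluster gene plus 0.1, on a log scale, by class, with replicate 1 left of replicate 2 in each class; each dot is a gene, the bars are class medians, and the dotted line is where a gene at 0 TPM is drawn. Hist1h2ap lies far above the other genes in both libraries, at 11227 TPM in replicate 1 against 11308 TPM in replicate 2.

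Among the other H2A genes, Hist2h2aa2 and Hist1h2al stood next by mean TPM over both libraries, which is the order used for all lists of genes here. Hist2h2aa2 of the Hist2 cluster had 893 TPM in replicate 1 against 891 TPM in replicate 2. Every 100-base stretch of it occurs in Hist2h2aa1, which had 64.3 TPM in replicate 1 against 52.3 TPM in replicate 2. The pair summed to 957 TPM in replicate 1 against 944 TPM in replicate 2, so the pair's level was close between libraries whatever the split between its copies. Hist1h2al, a processed pseudogene far from the rest of the Hist1 cluster, had 756 TPM in replicate 1 against 654 TPM in replicate 2. It shares 19.2% of its 100-base stretches with other genes, and 67.6% of its 50-base stretches.

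The same class held genes that the libraries placed far apart. Hist1h2ah had 80.8 TPM in replicate 1 against 921 TPM in replicate 2. Hist1h2an had 21.9 TPM in replicate 1 against 89.9 TPM in replicate 2. Hist1h2af went the other way, with 160 TPM in replicate 1 against 40.7 TPM in replicate 2. All 3 belong to the group of 11 H2A genes joined above by shared stretches. Hist1h2ai, with 61.5 TPM in replicate 1 against 62.3 TPM in replicate 2, and Hist1h2ac, with 47.2 and 44.6 TPM in the same order, were alike in both. Among the rest of the class, Hist1h2ak had 69.7 TPM in replicate 1 against 18.3 TPM in replicate 2, Hist1h2ae had 33.4 and 40.7 TPM, Hist1h2ag 31.7 and 27.2 TPM, and Hist1h2ab 16.2 and 16.7 TPM. Hist1h2ad had 185 counts in replicate 1 and none in replicate 2. Of the 20 H2A genes, Hist1h2aj, Hist1h2ao and Hist2h2ab had no counts, and Hist1h2aa had 2 counts in replicate 2 and none in replicate 1.

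The H4 class was expressed as a whole: all 13 genes were detected. Its median level was 60.1 TPM in replicate 1 and 29.9 in replicate 2, where all 67 genes had medians of 19.3 and 16.7 TPM. The 13 genes encode 1 and the same protein of 103 residues, so these transcripts differ only in their silent positions and their untranslated ends. By mean TPM Hist1h4h led with 419 TPM in replicate 1 against 584 TPM in replicate 2. Hist1h4i had 292 TPM in replicate 1 against 588 TPM in replicate 2, and Hist1h4n had 91.0 TPM in replicate 1 against 252 TPM in replicate 2. Hist1h4m shares 88.1% of its 100-base stretches with Hist1h4n and had 83.5 TPM in replicate 1 against 0 TPM in replicate 2. Together Hist1h4m and Hist1h4n had 174 TPM in replicate 1 against 252 TPM in replicate 2. Hist1h4d shares no such stretch with another gene, and it was close between libraries at 75.4 TPM in replicate 1 against 68.0 TPM in replicate 2. The next 5 were all at or below 97.7 TPM in both libraries. Hist1h4k had 97.7 TPM in replicate 1 against 50.9 TPM in replicate 2, Hist1h4c had 60.1 and 14.1 TPM, Hist1h4a 42.7 and 29.9 TPM, Hist1h4b 16.2 and 44.3 TPM, and Hist1h4f 29.1 and 9.13 TPM. The lowest of the class were Hist1h4j, Hist2h4 and Hist4h4, none of which reached 10 TPM in either library.

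H1 expression rested on Hist1h1c. This gene for the somatic linker histone H1.2 (chr13:23738808-23740367, plus strand, mm10) had 387 TPM in replicate 1 against 363 TPM in replicate 2, which was 81.8% and 94.8% of the class. Only 5.07% of its 100-base stretches occur in another gene, so copies leave little doubt about its level. Hist1h1e had 56.2 TPM in replicate 1 against 10.8 TPM in replicate 2, and Hist1h1d had 25.4 TPM in replicate 1 against 4.70 TPM in replicate 2. The model of Hist1h1e overlaps that of Hist1h2be on the same strand, so fragments there are uncertain. Hist1h1a and Hist1h1b, genes for H1.1 and H1.5, were at 1.66 and 2.94 TPM in replicate 1, from 33 and 70 counts, and at 4 and 0 counts in replicate 2. Hist1h1t, the testis linker histone, had no counts in either library.

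H2B genes were low as a class, with 426 TPM in replicate 1 against 658 TPM in replicate 2. Hist1h2bc led with 260 TPM in replicate 1 against 295 TPM in replicate 2, and Hist1h2bj followed with 52.4 TPM in replicate 1 against 157 TPM in replicate 2. Hist1h2bf had 6.74 TPM in replicate 1 against 73.7 TPM in replicate 2, so its place in the order differed between the libraries. Hist1h2bk was steady at 38.7 TPM in replicate 1 against 39.2 TPM in replicate 2. Hist1h2bg had 21.7 TPM in replicate 1 against 45.8 TPM in replicate 2. Hist1h2bb, Hist1h2bl, Hist1h2bn and Hist1h2bq had between 70.2 and 239 counts in replicate 1 and none in replicate 2. Hist1h2ba, the testis H2B gene, and Hist3h2bb-ps, a pseudogene, had no counts. Hist2h2be, whose transcript in other cells is known to be polyadenylated, had 9 counts in replicate 1 and 2 counts in replicate 2.

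The H3 genes had no single leader. Hist1h3h had 66.9 TPM in replicate 1 against 146 TPM in replicate 2, Hist2h3b had 81.8 and 122 TPM, and Hist2h3c2 had 48.7 and 144 TPM. All 3 were higher per TPM in replicate 2, and none held more than 27.7% of the class in that library. Hist1h3h shares 92.0% of its 100-base stretches with other genes, and Hist2h3c2 61.6%. Hist2h3c1, all of whose stretches are shared, had no counts. Of the other H3 genes, Hist1h3i had 64.6 TPM in replicate 1 against 52.1 TPM in replicate 2, Hist1h3e had 25.3 and 18.1 TPM, and Hist1h3d 19.3 and 16.8 TPM. Hist1h3b and Hist1h3g stood near 10 TPM, with 12.7 and 12.1 TPM in replicate 1, and 8.71 and 8.18 TPM in replicate 2. The lowest H3 gene with counts by mean TPM was Hist1h3f, at 11.2 TPM in replicate 1 against 1.44 TPM in replicate 2, from 314 and 1.87 counts. In replicate 1 Hist1h3a was lower, at 6.28 TPM.

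Nearly all of the signal came from the Hist1 cluster. Its 54 genes on chromosome 13 held 92.9% of the members' TPM in replicate 1 and 92.8% in replicate 2. The 9 genes of the Hist2 cluster on chromosome 3 had 1108 TPM in replicate 1 against 1237 TPM in replicate 2. Those besides Hist2h2aa1, Hist2h2aa2, Hist2h3b and Hist2h3c2 were low: Hist2h2ac had 14.5 TPM in replicate 1 against 20.3 TPM in replicate 2, and Hist2h4 had 5.90 TPM in replicate 1 against 5.81 TPM in replicate 2. In the Hist3 cluster on chromosome 11, Hist3h2a had 16.1 TPM in replicate 1, from 1272 counts, and no counts in replicate 2, while Hist3h2ba had 5.11 TPM in replicate 1 against 6.92 TPM in replicate 2. Hist4h4, alone on chromosome 6, had 3.32 TPM in replicate 1 against 6.90 TPM in replicate 2, from 357 and 35 counts.

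The Hist1 cluster falls into 2 runs of genes on chromosome 13 and 1 gene apart, Hist1h2al. The run of 23 genes between 21715763 and 22043676 (mm10) holds Hist1h2ap and summed to 12319 TPM in replicate 1 against 13755 TPM in replicate 2. The run of 30 genes between 23531050 and 23934851 summed to 1784 TPM in replicate 1 against 1759 TPM in replicate 2. The median gene had 38.7 TPM in replicate 1 against 27.2 TPM in replicate 2 in the first run, and 17.7 TPM and 12.5 TPM in the second.

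**Figure D3:**
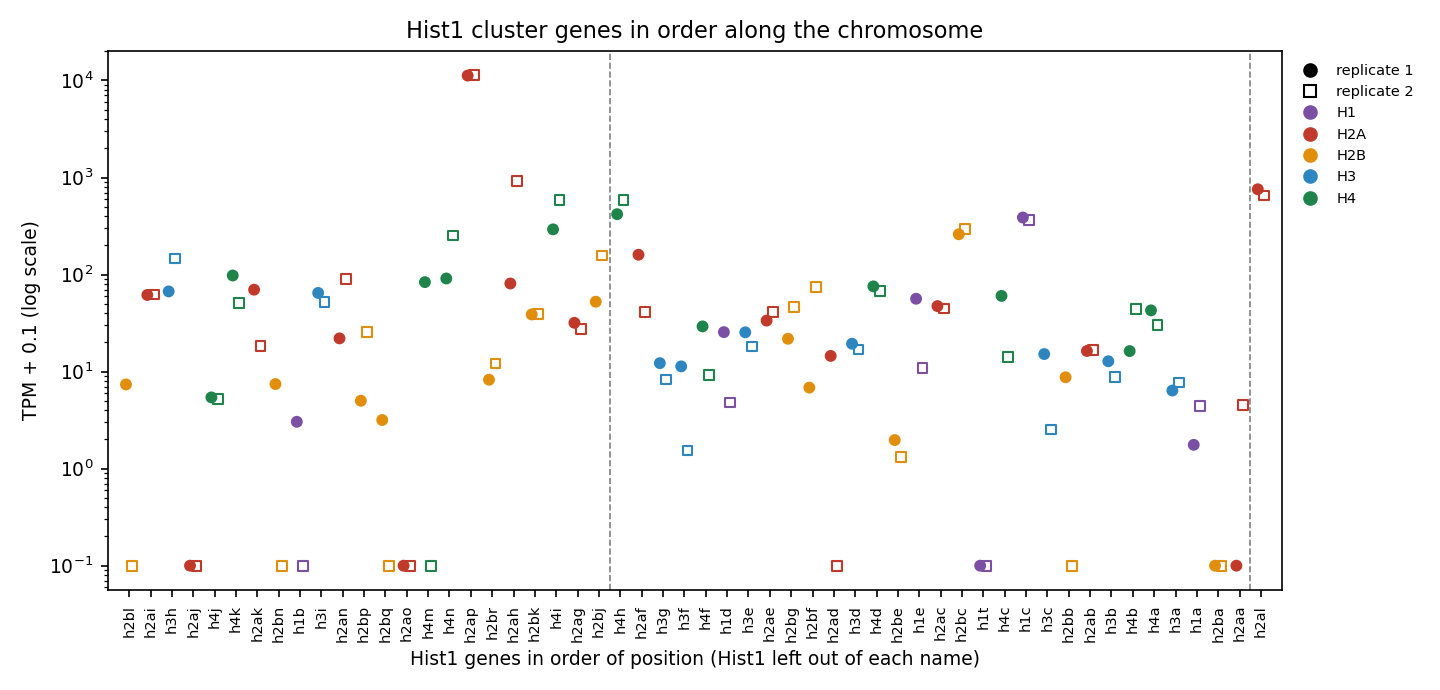
TPM plus 0.1, on a log scale, of the Hist1 genes in their order along the chromosome, with filled circles for replicate 1 and open squares for replicate 2, coloured by histone class; dashed lines part the 2 runs of genes and Hist1h2al. Hist1h2ap stands alone at the top of the first run, and Hist1h4h is the highest of the second.

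Many H2A and H2B genes lie head to head, and these neighbours were not equally abundant. In 13 such pairs the starts lie between 173 and 306 bases apart. The H2A gene was higher in both libraries in 6 pairs, and the H2B gene in 2 pairs, Hist1h2ac with Hist1h2bc and Hist1h2ag with Hist1h2bj. The widest gap was between Hist1h2ap and Hist1h2br, which had 8.15 TPM in replicate 1 against 12.1 TPM in replicate 2. In the Hist2 cluster, Hist2h2ac had 14.5 TPM in replicate 1 against 20.3 TPM in replicate 2, beside 0.09 and 0.44 TPM for Hist2h2be.

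The promoters of 3 H2A and H4 genes are printed because the classes differ there in the motifs they hold. Each is the window of 250 bases before to 50 bases after the gene's start from RefSeq (GRCm38.p6), 5′ to 3′ on the gene's strand. Hist1h2ap lies at chr13:21833426-21833725 on the minus strand, Hist1h2ah at chr13:22035594-22035893 on the minus strand and Hist1h4h at chr13:23530794-23531093 on the plus strand. Capitals mark the motif CCAAT wherever it stands on either strand, the motif TATAAA on the gene's own strand, and the octamer motif ATGCAAAT on either strand.
Hist1h2ap: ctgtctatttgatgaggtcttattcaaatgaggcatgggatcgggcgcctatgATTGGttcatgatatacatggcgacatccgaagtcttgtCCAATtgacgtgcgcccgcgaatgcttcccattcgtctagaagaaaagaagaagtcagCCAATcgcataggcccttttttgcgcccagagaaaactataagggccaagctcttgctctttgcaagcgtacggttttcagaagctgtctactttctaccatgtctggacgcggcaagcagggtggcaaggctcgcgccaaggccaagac
Hist1h2ah: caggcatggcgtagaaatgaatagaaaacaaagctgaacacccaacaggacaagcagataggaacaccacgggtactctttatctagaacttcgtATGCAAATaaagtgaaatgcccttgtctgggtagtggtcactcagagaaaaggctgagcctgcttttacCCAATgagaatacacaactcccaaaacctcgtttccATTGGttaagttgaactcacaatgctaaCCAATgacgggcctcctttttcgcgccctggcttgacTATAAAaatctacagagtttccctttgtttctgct
Hist1h4h: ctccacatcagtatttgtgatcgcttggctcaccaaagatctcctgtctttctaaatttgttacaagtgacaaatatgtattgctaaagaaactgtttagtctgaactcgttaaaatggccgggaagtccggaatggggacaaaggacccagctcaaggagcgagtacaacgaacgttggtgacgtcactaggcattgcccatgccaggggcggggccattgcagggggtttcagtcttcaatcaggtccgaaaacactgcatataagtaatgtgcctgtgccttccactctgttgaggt

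The window of Hist1h2ap holds CCAAT on both strands and neither of the other motifs, that of Hist1h2ah holds all 3, and that of Hist1h4h holds none. RefSeq windows were matched for 59 of the 67 genes. CCAAT occurred in 84.7% of them, against 37.4% of all 32817 mouse promoter windows, and it stood in all 47 windows of H1, H2A, H2B and H3 genes but in only 3 of 12 of H4 genes. TATAAA occurred in 50.8% of the members' windows and in 8.32% of all windows. The octamer ATGCAAAT occurred in 7 of 18 H2A and 4 of 13 H2B windows, in none of the H1, H3 and H4 windows, and in 1.74% of all windows. The windows of head-to-head H2A and H2B genes overlap, so those counts are not independent. These are matches of letters and say nothing of binding.

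Most of the members' TPM lay in transcripts whose annotated 3′ end is the stem-loop itself. The assignment used 50 transcripts with the same model in the authors' annotation and in the one that gave the sequence. In 17 of them the model ends within 100 bases of the stem-loop, and these held 78.7% of the members' TPM in replicate 1 and 74.3% in replicate 2. The model of Hist1h2ap ends 3 bases after it, and without that gene the share was 28.6% in replicate 1 and 26.6% in replicate 2. A further 23 transcripts have no stem-loop of the searched pattern in their model and held 4.57% in replicate 1 and 8.73% in replicate 2. Another 22 transcripts have models that differ between the annotations and were assigned no end; they held 11.5% in replicate 1 and 10.4% in replicate 2.

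Transcripts that run past the stem-loop by more than 100 bases were a minor share by level and a larger one by counts. There were 10 of them, with 828 TPM in replicate 1 against 1161 TPM in replicate 2, or 5.18% and 6.66% of the members' TPM (5.92% ± 1.05, SD, n = 2). In expected counts they held 13.9% in replicate 1 and 15.9% in replicate 2. Without Hist1h2ap their TPM share was 17.4% in replicate 1 and 19.0% in replicate 2. Hist1h1c, whose model goes on for 840 bases after the stem-loop printed above, and Hist1h4i, with 330 bases, held most of it, followed by Hist2h3c2 with 377 bases. The first 2 had 387 and 292 TPM in replicate 1, and 363 and 588 TPM in replicate 2.

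**Figure D4:**
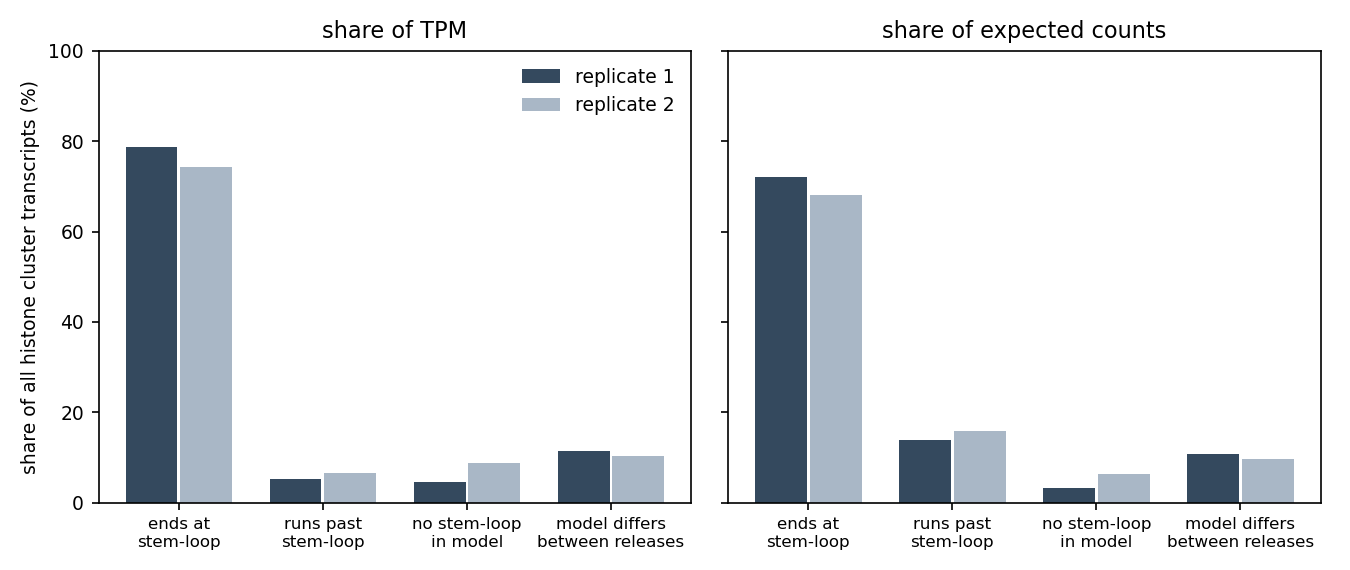
Share of the histone cluster transcripts' TPM (left) and expected counts (right) in percent, by the annotated 3′ end of the transcript, with dark bars for replicate 1 left of pale bars for replicate 2. Transcripts that end at the stem-loop hold 78.7% and 74.3% of TPM, and those that run past it hold more of the counts, at 13.9% and 15.9%, than of TPM.

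The longer transcripts also differ from the short ones in a signal at the annotated end. The last 50 bases of a short model lie at or near the stem-loop, so this contrast is not independent of the sorting. A polyadenylation signal, AATAAA or ATTAAA, stood in the last 50 bases of 8 of the 10 transcripts that run past the stem-loop. It stood there in none of the 17 that end at it and in 5 of the 23 without a stem-loop of the searched pattern. Of 58728 other protein-coding mouse transcripts, 50.2% had one there. The annotated models set what could be counted: 15 members' models end within 5 bases of the stop codon, and these had 641 TPM in replicate 1 against 1386 TPM in replicate 2. The shares above are therefore shares of annotated models, and the tails themselves were not measured.

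Genes with several annotated transcripts gave few of them. Hist1h2bp had 4.69 TPM in replicate 1 against 25.3 TPM in replicate 2 in the transcript that ends at the stem-loop, and 0.22 TPM and 0 TPM in a longer one without it. Hist1h2br had its whole level in a transcript of 1256 bases with no stem-loop of the searched pattern, and none in a second of 2197 bases. Across 60 members with counts, Spearman's correlation of mean TPM with model length was -0.33, as a description over genes that share libraries and sequence. The median was 41.0 TPM for the 34 genes with models under 500 bases, 17.4 TPM for the 17 genes of 500 to under 1000 bases and 5.86 TPM for the 9 longer ones.

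Between the libraries the family kept its order about as well as other genes did. Over the 59 detected members Spearman's correlation of TPM was 0.765 and Pearson's correlation on the log2 scale was 0.794. Over all 9858 detected genes the values were 0.764 and 0.816. Ratios of replicate 1 over replicate 2 were then taken on expected counts scaled by TMM, edgeR's trimmed mean of log ratios between libraries, for genes with a mean of at least 10 counts. Of 58 such members, 12 were at least 2-fold higher in replicate 1, or 20.7%, beside 27.6% of all 12131 genes. A further 13 were at least 2-fold lower, or 22.4%, beside 16.3% of all genes.

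**Figure D5:**
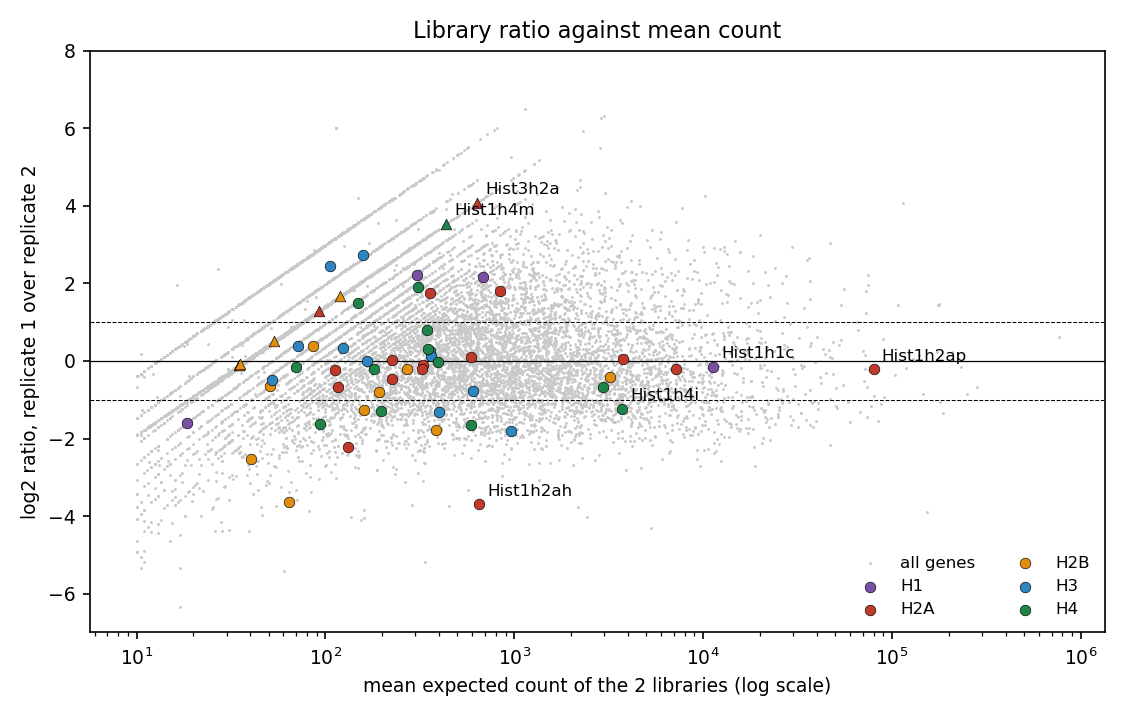
Log2 ratio of replicate 1 over replicate 2 after TMM scaling, against the mean expected count of both libraries on a log scale, for genes with a mean of at least 10 counts; grey points are all genes, coloured points are histone cluster genes by class, triangles are members at 0 in replicate 2, whose ratio is a lower bound against the floor of 3 counts, and dashed lines mark 2-fold. Hist1h2ap and Hist1h1c lie near 0, Hist1h2ah lies lowest among the named members, and Hist3h2a and Hist1h4m lie highest.

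Among members with a mean of at least 100 counts, the ratios spanned a wide range on both sides. Hist1h2ah had a ratio of 0.0775 (95% interval for counting error 0.0689 to 0.0870), followed by Hist1h2an at 0.216, Hist2h3c2 at 0.289, Hist1h2bj at 0.291 and Hist1h4n at 0.317. At the other end, Hist3h2a was at least 16.9-fold higher and Hist1h4m at least 11.6-fold higher in replicate 1, each against the floor of 3 counts in replicate 2. Hist1h3f (ratio 6.69, interval 1.72 to 52.0) and Hist1h3c (5.42, interval 1.14 to 34.7) had 1.87 and 1.54 counts in replicate 2, under the floor, and Hist1h1d (4.65, interval 2.06 to 15.0) had 5.21, so the order of these 3 is not fixed. Of these 10 genes, Hist1h2ah, Hist1h2an, Hist2h3c2, Hist1h4n and Hist1h4m share at least 50% of their 100-base stretches with another member. Genes with much sharing were also close between libraries, such as Hist2h2aa2 at a ratio of 0.871 and Hist1h2ap at 0.867. Genes with little were also far apart, such as Hist1h4i at 0.428 and Hist4h4 at 0.407. Sharing was counted on the models of the annotation that gave the sequence. For some members these differ in length from the models behind the counts.

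By their median, the members were lower relative to other genes in replicate 1 on this scale. By their sum the direction depended on the measure. The members held 0.569% of all expected counts in replicate 1 and 0.522% in replicate 2, but 1.60% and 1.74% of all TPM. Their median log2 ratio was -0.13, against 0.52 for all genes, and 17 of the 58 were above the median of all genes. The filter is a mean of raw counts, so genes of few counts pass it mostly through the deeper replicate 1. The median of all genes therefore depends on the filter. At a mean of at least 100 counts the medians were -0.13 for the members and 0.29 for all genes, and 14 of 44 members were above the latter. With no filter on counts they were -0.0088 and 0, but the latter is set by genes without counts, which are then the majority. Under scaling by total counts the medians were 0.31 for the members and 0.94 for all genes. The members are richer in GC than other genes, with a median of 58.8% against 47.5%, and against genes of like GC content their median difference was 0.19, so the direction turned. Summed over the class, the ratio was 0.970 for H1, 0.845 for H2A, 0.629 for H2B, 0.537 for H3 and 0.572 for H4. Counting intervals were 0.909 to 1.03 for H1 and 0.489 to 0.592 for H3. No sum over all genes stands beside these ratios, so they do not place a class above or below other genes. Macrophage and granulocyte markers were higher in replicate 1 over these libraries, with median log2 ratios of 3.28 and 2.59, and their part in the members' ratios was not tested.

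Set beside the histone variants that are made outside S phase as well, the cluster genes were the more abundant RNA in total. The members had 2.26 times the TPM of 18 variant genes in replicate 1 and 3.02 times in replicate 2 (2.64 ± 0.53, SD, n = 2). Of the variant genes, 11 were detected, and the list summed to 7064 TPM in replicate 1 against 5768 TPM in replicate 2. H2afz, for H2A.Z, had 2406 TPM in replicate 1 against 1579 TPM in replicate 2, and H3f3a, for H3.3, had 1987 and 775 TPM. H2afx, for the DNA damage histone H2A.X, had 401 TPM in replicate 1 against 1698 TPM in replicate 2, and its RNA is known to occur both with a stem-loop end and with a tail. H2afy3, H1fnt, H1foo, H2afb1, H2afb2 and H2afb3 had no counts in either library.

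The balance of cluster to variant genes differed by class. Without Hist1h2ap the members had 0.674 times the variants' TPM in replicate 1 and 1.06 times in replicate 2. For H2A the ratio of cluster genes to variants was 3.68 in replicate 1 and 3.85 in replicate 2. Hist1h2ap held 83.1% of the H2A cluster TPM in replicate 1 and 79.7% in replicate 2, so this ratio rests mostly on that gene. For H1, against H1f0 and H1fx, it was 1.24 in replicate 1 and 1.85 in replicate 2. For H3 it was below 1 in both libraries, 0.127 in replicate 1 and 0.326 in replicate 2 against H3f3a and H3f3b.

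Genes that make and cut histone RNA summed to far less TPM than the cluster genes, most of whose sum is Hist1h2ap. The medians lay nearer. They were 16.3 TPM in replicate 1 and 9.47 TPM in replicate 2 for the genes that cut 3′ ends. For the locus body genes described below they were 4.5 and 3.2 TPM, beside 19.3 and 16.7 TPM for the members. Of 15 genes for the cutting of 3′ ends, 13 were detected, led by Sympk, Cpsf4 and Fip1l1, of which Sympk, the symplekin scaffold, had 200 TPM in replicate 1 against 181 TPM in replicate 2. Slbp, for the protein that binds the stem-loop, had 50.4 TPM in replicate 1 against 14.7 TPM in replicate 2. Lsm11 and Lsm10, for proteins of the U7 particle, had 16.3 and 18.3 TPM in replicate 1, and 63.7 and 9.47 TPM in replicate 2. Zfp473 was lowest, with 16 counts in replicate 1 and 2 in replicate 2. Among the 14 of these genes with at least 10 counts on average, 3 were at least 2-fold higher in replicate 1 and 1 was at least 2-fold lower. Of all genes, 27.6% were higher and 16.3% lower by that measure.

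Of 14 genes for the histone locus body and S-phase transcription, 9 were detected. Ncor1 led with 155 TPM in replicate 1 against 89.5 TPM in replicate 2, before Nfyc, a subunit of the factor that binds CCAAT, with 69.9 and 54.5 TPM, and Yy1 with 26.7 and 53.1 TPM. Npat, the cyclin E target that activates histone genes, was below detection at 0.63 TPM in replicate 1 against 0.27 TPM in replicate 2. Pou2af1, a lymphoid partner of octamer-binding factors, had no counts. Of 18 S-phase genes, 16 were detected, and the list summed to 400 TPM in replicate 1 against 347 TPM in replicate 2, led by Cdt1 with 61.9 and 84.1 TPM, Ccna2 with 44.6 and 63.0 TPM and Rrm2 with 38.7 and 49.2 TPM. Slbp is on both the 3′ end and the S-phase list. Of the 13 locus body genes with a mean of at least 10 counts, 3 were higher in replicate 1 by 2-fold or more and 2 were lower by as much. Of the 18 S-phase genes, 6 were higher and 0 lower by that measure, beside 27.6% and 16.3% of all genes.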

How the data were processed

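PolyA RNA was sequenced from 2 libraries of embryonic mouse megakaryocytes, grouped by the labels. Per the file headers, the authors deposited expected counts, TPM and posterior mean TPM per gene and transcript, with length and effective length used as a score of transcript size; which aligner and quantifier were used is not given in the sources at hand. The assembly is mm10, per the labels, with the annotation GENCODE M4, per the deposited file lists. Symbols, positions and transcript sequences came from GENCODE M21 (GRCm38), and promoters from RefSeq. The expected counts that the authors deposited were rounded for TMM factors (edgeR 4.0.16) and DESeq2 1.42.0 size factors; R 4.3.3, Python 3.11.15 and SciPy 1.17.1 were used. Ratios used a prior of 0.5 counts for medians and a floor of 3 counts per library for zeros. The scaled ratio was checked on simulated counts, with some genes changed by a known step wider than 2-fold. That simulation held counting error only, so it is no check of 2-fold calls between these libraries. Intervals (95%, exact) and floors cover counting error only. The depth, 42099208 against 2275920 rounded counts, limits replicate 2. A transcript model was assigned a 3′ end only where both annotations hold it at the same length. Shared stretches were counted on the GENCODE M21 models also where these differ from GENCODE M4.

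Genes were named by a rule: members at 10 TPM or more or described by class, every gene of the smaller clusters by value or count, the 5 widest ratios on each side at 100 counts or more, and the 3 highest and the lowest of each list, of which 1 gene is not reported here. Members, lists and rule were chosen with earlier results of these data known. No test was made, since there is 1 group of 2 libraries. Alternatives covered detection level, scaling, filters, prior, GC content, 3′ length limits, posterior means and leaving out a library, a leading gene or H3f3a and H3f3b. No source used here states the strand setting of the counts, so genes that overlap on opposite strands are uncertain.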

Additional observations from a re-analysis of the deposited data

How the results depend on the processing

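The number of detected members stayed within 1.5 times of 59 in every alternative run, and was 51 without replicate 1 and 58 without replicate 2. Posterior mean TPM lowered the summed TPM to 14048, and leaving out Hist1h2ap lowered it to 5437; without a library it was 15992 to 17419. The H2A share was 74.3% by expected counts and 47.5% without Hist1h2ap, and 81.5% to 84.5% without a library. The median log2 ratio of the members was -0.16 with DESeq2 size factors, against 0.49 for all genes. With no filter on counts it was -0.0088, against 0 for all genes. Most genes then have no counts in either library and a log2 ratio of 0. That setting therefore cannot compare the members with other genes. At a mean of at least 100 counts the median of the members was -0.13, against 0.29 for all genes. It turned to 0.31 under total counts and to 0.19 against genes of like GC content. Since all genes moved from 0.52 to 0.94 under total counts, that reversal is a shift of the scale. For the GC setting the cause was not tested. The number of members at least 2-fold apart, 25, was 20 to 25 in the alternatives. The share past the stem-loop was 14.9% by expected counts and, in a setting chosen after seeing the data, 18.2% without Hist1h2ap; without a library it was 5.18% to 6.66%. The ratio to variant histones was 4.002 without H3f3a and H3f3b and, likewise chosen after seeing the data, 0.867 without Hist1h2ap; without a library it was 2.26 to 3.02. No paired analysis was possible because there is only 1 group. Depth limits replicate 2, in which 37 members reached 10 counts, against 58 in replicate 1, and genes with near-identical copies limit single values in both.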

Other observations

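RNAs that carry no poly(A) tail were present in these poly(A) libraries beside the histone genes. Of 25 such RNAs listed, 10 had a mean of at least 1 TPM, 4 of them from 3 counts or fewer in 1 library and none in the other, and the list summed to 13649 TPM in replicate 1 against 3045 TPM in replicate 2. Rn7s1 and Rn7s2, copies of the signal recognition particle RNA that the authors' estimates split equally, had 4818 TPM each in replicate 1 against 629 TPM each in replicate 2. Rn7sk had 2405 TPM in replicate 1 against 730 TPM in replicate 2, and Rpph1, the ribonuclease P RNA, had 878 and 715 TPM. Rnu7, the RNA of the U7 particle, had no counts. Effective length lay well below length, at 177 against 312 bases for Hist1h4k in replicate 1. A very short RNA may therefore get no counts whatever its level. The median log2 ratio over the 6 of these RNAs with at least 10 counts on average was 1.46, against -0.13 for the histone cluster genes and 0.52 for all genes.

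Genes for the handling of histone RNA and histone proteins were mostly detected. Of 14 genes for export, translation and decay of histone RNA, 13 were detected, led by mean TPM by Nelfe with 217 TPM in replicate 1 against 70.5 TPM in replicate 2, Upf1 with 70.7 and 101 TPM and Srrt with 90.04 and 75.4 TPM. Xrn1 was lowest, at 1.30 and 0.35 TPM. Of 17 histone chaperones, 16 were detected, led by mean TPM by Asf1b with 91.7 TPM in replicate 1 against 39.2 TPM in replicate 2, Nap1l1 with 89.2 and 40.4 TPM and Cabin1 with 27.8 and 46.7 TPM. Hat1, a histone acetyltransferase, was lowest, with 26 counts in replicate 1 and none in replicate 2.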
